A study of Mus musculus with 21 samples.

Results

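Prostaglandin and leukotriene metabolism is described here through 10 genes, which encode 9 enzymes or enzyme partners and 1 prostaglandin receptor. They were taken by gene symbol, with earlier results of these data known. They are Pla2g4a, Ptgs1, Ptgs2, Ptges, Ptges2, Hpgds, Hpgd, Ptger4, Alox5 and Alox5ap. All 10 were found among the 47069 gene identifiers of the count table, and all 10 were among the 15581 genes that passed the filter on low counts. Prostaglandins and leukotrienes are lipid messengers made from arachidonic acid, a fatty acid that cytosolic phospholipase A2 releases from membranes. The cyclooxygenases convert it to prostaglandin H2, from which separate synthases form prostaglandin E2, prostaglandin D2 and other products, while 5-lipoxygenase with its activating protein starts leukotriene synthesis. In macrophages, cyclooxygenase 1 is a resting enzyme and cyclooxygenase 2 is known as the isoform that inflammatory stimuli induce, and 15-hydroxyprostaglandin dehydrogenase begins the inactivation of prostaglandin E2.

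The RNA came from cultured macrophages that had been differentiated from bone marrow precursors with the growth factor M-CSF. The marrow came from wild-type C57BL/6 mice aged 8 to 10 weeks. The groups were IL_TNF_6h and IL_TNF_24h (interleukin 4, interleukin 13 and tumour necrosis factor together), IL_6h and IL_24h (interleukin 4 and interleukin 13), TNF_6h and TNF_24h (tumour necrosis factor alone) and the untreated Ctrl_0h. Each cytokine was given at 10 ng/ml for 6 h or 24 h, and untreated cells were sampled at 0 h, so every comparison with Ctrl_0h also carries time in culture. Each of the 7 groups held 3 libraries, with 28063252 to 48654300 counts per library. Whether the 3 libraries of a group are from different mice or cultures is not in the labels, and a p value here measures the spread among these libraries alone, which may be technical. Levels are given in CPM (read counts brought to the same total in every library) as mean ± SD with n = 3, and changes are log2 fold changes ± standard error. A gene was called at a Benjamini-Hochberg adjusted p below 0.05 in the quasi-likelihood test of edgeR over all 15581 genes. In bulk RNA, fewer cells that make a transcript and less of it per cell cannot be told apart.

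The libraries fell into 3 sets. Xist was between 162 and 283 CPM and Ddx3y was at 0 in Ctrl_0h, TNF_6h and TNF_24h, whereas IL_24h and IL_TNF_24h had at most 0.145 CPM of Xist and 41.8 to 50.9 CPM of Ddx3y. Ifi202b was between 30.3 and 64.2 CPM in IL_6h and IL_TNF_6h and at 0 in the other libraries. TNF against Ctrl_0h, TNF_24h against TNF_6h, and IL_TNF against IL at 1 time stayed inside a set, and in every other pair of groups the set and the treatment cannot be told apart. The macrophage markers Adgre1, Csf1r, Cd68, Lyz2, Mertk and Fcgr1 summed to between 11400 and 39800 CPM per library, and all 6 were above 1 CPM in the mean of every group. In replicate 2 of Ctrl_0h 27761 genes had a count, and in the 20 others 16996 to 20631 had one. Replicate 1 of IL_TNF_24h stood apart from its group for several of the 10 genes, as given below.

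A larger share of the 10 genes was called than of all genes in every comparison made. The genes were chosen with earlier results of these data known, so these shares are a description and not a test. In IL_TNF_6h against IL_6h, 4 rose (7.09% of all genes did) and 3 fell (6.98%), which makes 7 called, against 14.1% of all genes. In IL_TNF_24h against IL_24h, 3 rose (6.03%) and 3 fell (5.08%), or 6 called against 11.1%. These comparisons of IL_TNF with IL had the lowest background of all pairs of groups. In TNF_6h against Ctrl_0h, 3 rose (18.8% of all genes did) and 5 fell (20.5%), or 8 called against 39.3%. In TNF_24h against Ctrl_0h, 4 rose (20.9%) and 5 fell (24.4%), or 9 called against 45.3%. In IL_6h against Ctrl_0h, 5 rose (32.8% of all genes did) and 4 fell (31.6%), or 9 called against 64.5%. In IL_24h against Ctrl_0h, 4 rose (31.7%) and 4 fell (32.6%), or 8 called against 64.3%, so the shares in these last comparisons are closer to their background. The median log2 fold change of the 10 genes was -0.13 in IL_TNF_6h against IL_6h, where that of all genes was -0.0131. It was 0.25 in IL_TNF_24h against IL_24h (all genes 0.0011), -0.26 in TNF_6h against Ctrl_0h (all genes -0.04) and -0.78 in TNF_24h against Ctrl_0h (all genes -0.09).

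**Figure D1:**
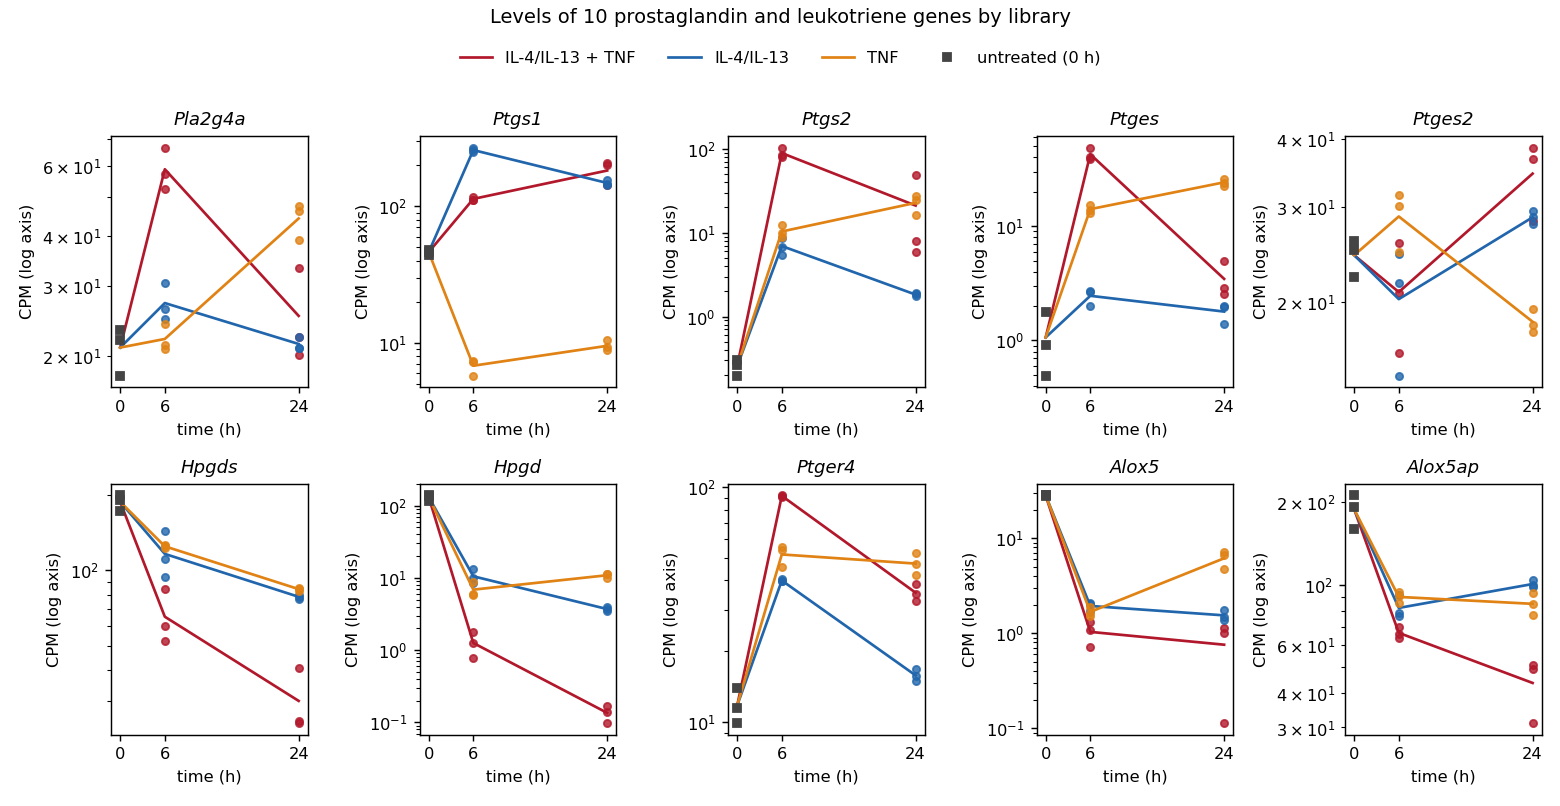
Level of each of the 10 genes in all 21 libraries, in CPM on a log axis, against time in hours. Points are single libraries and lines join group means, with untreated cells at 0 h as the common start. Ptgs2 and Ptges peaked with all 3 cytokines at 6 h (means 89.0 and 42.7 CPM), while Hpgd lay at 0.135 CPM with all 3 at 24 h, below its 131 CPM in untreated cells.

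Per kilobase of exon, a scale on which levels of different genes can be set side by side, IL_TNF_6h cells expressed Alox5ap most (75.4 CPM per kb), followed by Ptgs1 (29.2 CPM per kb) and Ptgs2 (21.5 CPM per kb), and Hpgd (0.729 CPM per kb) and Alox5 (0.252 CPM per kb) least. In Ctrl_0h this order was different at both ends. Alox5ap was highest there too (213 CPM per kb), but Hpgd came next (76.1 CPM per kb), and Ptges (0.270 CPM per kb) and Ptgs2 (0.0617 CPM per kb) were lowest.

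The promoters of the 3 genes that carry the contrast of synthesis and breakdown are shown here, because Ptgs2 and Ptges rose and Hpgd fell in all 4 comparisons that added TNF to untreated or IL-treated cells. Each window runs from 250 bases before to 50 after the start site of the RefSeq annotation (GRCm38.p6), 5′ to 3′ on the strand of the gene. Ptgs2 lies at chr1:150099781-150100080 on the plus strand, Ptges at chr2:30903248-30903547 on the minus strand and Hpgd at chr8:56294302-56294601 on the plus strand. Capitals mark every match, on either strand, to 7 short motifs.
Ptgs2: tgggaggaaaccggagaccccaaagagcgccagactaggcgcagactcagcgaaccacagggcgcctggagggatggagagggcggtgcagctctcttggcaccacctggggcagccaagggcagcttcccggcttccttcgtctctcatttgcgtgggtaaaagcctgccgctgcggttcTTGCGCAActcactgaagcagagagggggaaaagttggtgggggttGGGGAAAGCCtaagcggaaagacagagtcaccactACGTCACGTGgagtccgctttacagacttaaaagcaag
Ptges: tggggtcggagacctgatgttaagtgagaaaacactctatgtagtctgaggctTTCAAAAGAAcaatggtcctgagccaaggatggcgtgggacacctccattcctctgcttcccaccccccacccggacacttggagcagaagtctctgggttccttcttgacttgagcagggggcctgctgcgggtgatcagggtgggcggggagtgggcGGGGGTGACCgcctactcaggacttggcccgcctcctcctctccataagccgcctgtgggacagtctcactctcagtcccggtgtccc
Hpgd: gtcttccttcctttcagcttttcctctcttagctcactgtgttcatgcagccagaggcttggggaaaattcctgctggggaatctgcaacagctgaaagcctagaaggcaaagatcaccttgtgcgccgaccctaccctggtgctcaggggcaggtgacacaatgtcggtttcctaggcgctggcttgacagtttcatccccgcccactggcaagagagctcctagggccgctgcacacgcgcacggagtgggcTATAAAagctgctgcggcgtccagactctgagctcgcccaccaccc

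The motifs searched on both strands were GGGNNNNNCC (NF-kB, in 50.8% of 32851 promoter windows of the same length), TTCNNNGAA (STAT, 8.30%), TTCNNNNGAA (STAT6, 6.95%), and TTGCNNAA (C/EBP, 10.8%). The cyclic AMP response element was searched as TGACGT, which 7.51% of all windows hold. The E-box was searched as CACGTG, held by 7.15% of them, and the TATA box as TATAAA, held by 13.6%. Positions are those of the first base of a match, with the start site as 1. In the Ptgs2 window, TTGCGCAA began at -69 and GGGGAAAGCC at -23, and a cyclic AMP response element read on the other strand, ACGTCA at 13, overlapped the E-box at 17. The Ptges window held TTCAAAAGAA at -197 and GGGGGTGACC at -38. The Hpgd window held TATAAA at 5 and none of the other 6 motifs in these letters. The NF-kB pattern is in over 1 in 2 of all windows, and a match is a description of letters, not of a bound site. Of the 10 genes, 9 had a window in the table.

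Pla2g4a encodes cytosolic phospholipase A2, which frees arachidonic acid. It was highest with all 3 cytokines at 6 h and with TNF alone at 24 h. It had 52.5, 57.3 and 66.7 CPM in IL_TNF_6h, against 26.2, 30.5 and 24.8 CPM in IL_6h, and the libraries did not overlap. The rise was 1.12 ± 0.16 (adjusted p = 4.54e-05). In TNF_24h it had 39.2, 46.1 and 47.5 CPM, against 21.3, 24.0 and 20.9 CPM in TNF_6h and 17.8 to 23.2 CPM in Ctrl_0h. That was a rise of 1.08 ± 0.16 over Ctrl_0h (adjusted p = 2.01e-05), while TNF_6h did not differ from Ctrl_0h by the test (0.07 ± 0.16, adjusted p = 0.759). In IL_TNF_24h it had 33.3, 20.1 and 22.3 CPM, which overlapped the 20.95 to 22.3 CPM of IL_24h (0.23 ± 0.16, adjusted p = 0.485). The higher level in IL_6h than in Ctrl_0h (0.37 ± 0.16, adjusted p = 0.0493) lost its call in 10 of 13 alternatives, among them each fit without replicate 2 of Ctrl_0h (0.26, adjusted p = 0.192) or without replicate 2 of IL_6h (0.33, adjusted p = 0.116). Its adjusted p lay between 0.0377 and 0.192 over the alternatives.

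Ptgs1 and Ptgs2, which encode cyclooxygenase 1 and cyclooxygenase 2, responded in opposite directions to TNF alone. Ptgs2 had 8.88, 12.3 and 9.83 CPM in TNF_6h and 16.3, 24.3 and 27.4 CPM in TNF_24h, against 0.267, 0.304 and 0.196 CPM in Ctrl_0h. The untreated values come from 6 to 10 counts per library. All TNF libraries were thus above all untreated ones, and the rises over Ctrl_0h were 5.32 ± 0.73 at 6 h (adjusted p = 9.11e-06) and 6.45 ± 0.73 at 24 h (adjusted p = 6.3e-07). In the same comparisons Ptgs1 fell by 2.76 on the log2 scale at 6 h (± 0.14, adjusted p = 1.57e-11) and by 2.27 at 24 h (± 0.13, adjusted p = 8.38e-11), to 6.84 ± 0.93 CPM in TNF_6h and 9.56 ± 0.86 CPM in TNF_24h, against 46.2 ± 2.0 CPM in Ctrl_0h.

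With IL-4 and IL-13 present, TNF raised Ptgs2 at both times. IL_TNF_6h libraries had 83.4, 80.0 and 104 CPM of Ptgs2, against 5.37, 8.59 and 6.81 CPM in IL_6h. These groups did not overlap, with a rise of 3.68 ± 0.54 (adjusted p = 5.57e-05), and IL_TNF_6h was the highest group of the study for this gene. The sum of 6 fibroblast and stromal markers was 1.85, 1.48 and 8.42 CPM in IL_TNF_6h, against 2.41, 11.7 and 3.13 CPM in IL_6h. In both groups, and in Ctrl_0h, it was highest in the library with the most Ptgs2. In TNF_6h, TNF_24h and IL_24h it was highest (2.24, 3.95 and 1.67 CPM) in the library with the least Ptgs2. In IL_TNF_24h it was lowest (1.58 CPM) in the library with the most. In the 15 libraries outside IL_TNF_6h and IL_6h it was 0.454 to 5.14 CPM, and of these markers Lum was at 0 in all libraries. The part of such cells in the Ptgs2 level was not tested. Without replicate 3 of IL_TNF_6h the rise of Ptgs2 over IL_6h was 3.57, and without replicate 2 of IL_6h it was 3.88. At 24 h the IL_TNF_24h libraries had 49.4, 5.86 and 7.88 CPM, against 1.83, 1.90 and 1.75 CPM in IL_24h. The rise of 3.52 ± 0.56 (adjusted p = 0.000178) was 1.92 (adjusted p = 1.03e-05) without replicate 1 of IL_TNF_24h, the library with 49.4 CPM. Its adjusted p was at most 0.0278 in the alternatives. Ptgs1 had 117, 112 and 111 CPM in IL_TNF_6h, against 269, 248.5 and 256 CPM in IL_6h, a fall with no overlap (-1.19 ± 0.12, adjusted p = 1.1e-06). At 24 h it had 182 ± 34.7 CPM in IL_TNF_24h and 148 ± 5.96 CPM in IL_24h (0.30 ± 0.12, adjusted p = 0.143). Without replicate 1 of IL_TNF_24h that difference was 0.46 and passed the test (adjusted p = 0.01, between 0.00858 and 0.574 over the alternatives).

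IL-4 and IL-13 went with high Ptgs1, across sets of libraries. Ptgs1 was 2.48 ± 0.13 higher in IL_6h than in Ctrl_0h (adjusted p = 2.19e-11) and 4.05 ± 0.14 higher in IL_TNF_6h than in TNF_6h (adjusted p = 2.52e-13). At 24 h these differences were 1.68 ± 0.13 (adjusted p = 2.58e-09) and 4.25 ± 0.14 (adjusted p = 7.77e-14). The share of Ptgs2 in the cyclooxygenase reads per kb differed between the treatments. It was 42.3 ± 3.8% in IL_TNF_6h, 2.47 ± 0.65% in IL_6h and 1.14 ± 0.02% in IL_24h. With TNF alone it was 58.5 ± 2.6% at 6 h and 68.2 ± 7.9% at 24 h, against 0.518 ± 0.122% in Ctrl_0h. In IL_TNF_24h the 3 libraries had 24.5%, 2.60% and 3.58%, replicate 1 again standing apart.

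Ptges, the inducible microsomal prostaglandin E synthase 1, rose with TNF in every setting, by far less at 24 h when IL-4 and IL-13 were there. It had 48.8, 39.0 and 40.1 CPM in IL_TNF_6h, against 2.70, 2.01 and 2.67 CPM in IL_6h (4.12 ± 0.30, adjusted p = 7.91e-09). In IL_TNF_24h it had 4.95, 2.57 and 2.85 CPM, against 2.01, 1.38 and 1.98 CPM in IL_24h. The groups at 24 h did not overlap, but the rise of 0.94 ± 0.29 (adjusted p = 0.0383) lost its call in 6 of 13 alternatives. It was 0.60 (adjusted p = 0.274) without replicate 1 of IL_TNF_24h, and its adjusted p was 0.0801, 0.186 and 0.0817 without replicates 1, 2 and 3 of IL_24h. Over all alternatives it lay between 0.000198 and 0.274. With TNF alone Ptges had 13.2, 15.3 and 13.8 CPM at 6 h and 24.1, 26.1 and 22.5 CPM at 24 h, against 0.909, 1.79 and 0.489 CPM in Ctrl_0h. Those rises were 3.74 ± 0.31 (adjusted p = 1.8e-08) and 4.52 ± 0.32 (adjusted p = 1.01e-09), and over the alternatives they ranged from 3.41 to 4.32 and from 4.20 to 5.10. Replicate 2 of Ctrl_0h was the highest untreated library for Ptges, and without it the rises were 4.30 and 5.08. That library also had the highest sums of 5 B cell markers (9.23 CPM, against 0.245 to 4.35 CPM in the 20 others) and of 5 megakaryocyte and platelet markers (7.07 CPM, against 0.818 to 3.61 CPM). Their part in its Ptges level was not tested. The annotated span of Ptges overlaps that of Gm52550 and Gm13400, and the strand setting of the counting is not given in the sources used here, so its reads could be shared with those genes.

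Ptges2 encodes a constitutive prostaglandin E synthase. Its group means lay between 18.4 CPM in TNF_24h and 34.6 CPM in IL_TNF_24h, and it was called in none of the 4 comparisons that added TNF to untreated or IL-treated cells, where its largest log2 fold change was -0.41 ± 0.18 (TNF_24h against Ctrl_0h, adjusted p = 0.0702). Ptges took 51.6 ± 4.0% of the reads per kb of this pair in IL_TNF_6h, against 5.98 ± 0.63% in IL_6h. In IL_TNF_24h its share was 8.27%, 3.31% and 3.84%, against 3.11 ± 0.60% in IL_24h, with replicate 1 highest. With TNF alone it was 20.3 ± 3.4% at 6 h and 40.4 ± 1.9% at 24 h, against 2.25 ± 1.55% in Ctrl_0h.

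Hpgds, the hematopoietic prostaglandin D synthase, was highest in untreated cells and fell in all 4 of those comparisons. It had 52.0, 59.8 and 84.0 CPM in IL_TNF_6h, against 94.2, 143 and 111 CPM in IL_6h (-0.83 ± 0.19, adjusted p = 0.00374, but 0.0512 in the fit of these groups alone). In IL_TNF_24h it had 40.9, 24.9 and 24.5 CPM, against 77.0, 78.1 and 80.0 CPM in IL_24h (-1.38 ± 0.19, adjusted p = 3.78e-05), the lowest group of the study for this gene. It had 125 ± 1.22 CPM in TNF_6h (-0.59 ± 0.19, adjusted p = 0.0166) and 84.1 ± 1.11 CPM in TNF_24h (-1.16 ± 0.19, adjusted p = 5.17e-05), against 187 ± 13.8 CPM in Ctrl_0h. None of these pairs of groups overlapped. The call at 6 h ended without replicate 1 of Ctrl_0h (adjusted p = 0.053), without replicate 1 of TNF_6h (adjusted p = 0.0536) or without replicate 2 of TNF_6h (adjusted p = 0.0504), and its adjusted p was at least 0.000649 in the alternatives.

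Hpgd, 15-hydroxyprostaglandin dehydrogenase, was lower in every treated group than in untreated cells, and lowest with all 3 cytokines. It had 5.96, 8.86 and 5.74 CPM in TNF_6h and 11.2, 11.4 and 9.96 CPM in TNF_24h, against 137, 116 and 140 CPM in Ctrl_0h. The log2 fold changes were -4.25 ± 0.22 at 6 h (adjusted p = 3.17e-11) and -3.59 ± 0.21 at 24 h (adjusted p = 1.06e-10). No treated library came near the untreated range. In IL_TNF_6h Hpgd had 0.768, 1.24 and 1.75 CPM, against 8.59, 13.03 and 9.86 CPM in IL_6h, a log2 fold change of -3.05 ± 0.23 (adjusted p = 1.39e-08). In IL_TNF_24h it had 0.169, 0.140 and 0.0967 CPM, from 4 to 6 counts per library, against 3.66, 3.98 and 3.44 CPM in IL_24h. That was a log2 fold change of -4.75 ± 0.32 (adjusted p = 5.08e-09), between -4.92 and -4.56 over the alternatives, and replicate 1 of IL_TNF_24h did not stand apart here. Across sets, Hpgd was also lower in IL_6h (-3.64 ± 0.21, adjusted p = 8.51e-11) and IL_24h (-5.15 ± 0.23, adjusted p = 2.5e-12) than in Ctrl_0h. Its 7 groups ran from Ctrl_0h down through TNF_24h, IL_6h, TNF_6h, IL_24h, IL_TNF_6h and IL_TNF_24h, with overlap only between the libraries of TNF_24h and IL_6h and between those of IL_6h and TNF_6h.

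Ptger4, the EP4 receptor of prostaglandin E2, rose in all 4 comparisons that added TNF. It had 90.6, 92.2 and 91.7 CPM in IL_TNF_6h, against 39.6, 40.5 and 39.8 CPM in IL_6h (1.19 ± 0.12, adjusted p = 5.61e-07). In IL_TNF_24h it had 38.6, 35.1 and 32.7 CPM, against 15.6, 14.9 and 16.8 CPM in IL_24h (1.17 ± 0.12, adjusted p = 1.07e-06). With TNF alone it had 45.7, 53.6 and 55.4 CPM at 6 h and 42.2, 46.9 and 52.4 CPM at 24 h, against 11.4, 9.87 and 14.0 CPM in Ctrl_0h. The rises there were 2.13 ± 0.12 (adjusted p = 1.37e-10) and 2.00 ± 0.12 (adjusted p = 1.75e-10), and all groups compared were free of overlap. Across sets, the level in IL_24h was below that in IL_6h (-1.34 ± 0.12, adjusted p = 1.07e-07), and that in IL_TNF_24h below that in TNF_24h (-0.41 ± 0.12, adjusted p = 0.00615).

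Alox5, 5-lipoxygenase, and Alox5ap, its activating protein, were both highest in untreated cells. Alox5 had 1.51, 1.88 and 1.65 CPM in TNF_6h and 7.11, 6.58 and 4.77 CPM in TNF_24h, against 28.2, 27.8 and 28.5 CPM in Ctrl_0h. The log2 fold changes were -4.06 ± 0.39 at 6 h (adjusted p = 9.57e-08) and -2.19 ± 0.35 at 24 h (adjusted p = 4.07e-05). TNF_24h was 1.87 ± 0.37 above TNF_6h (adjusted p = 0.000822) and still below every untreated library. With IL-4 and IL-13, Alox5 was low with or without TNF. It had 1.03 ± 0.31 CPM in IL_TNF_6h and 1.94 ± 0.19 CPM in IL_6h (-0.90 ± 0.38, adjusted p = 0.149), and 0.113, 1.14 and 1.02 CPM in IL_TNF_24h, against 1.54 ± 0.19 CPM in IL_24h (-0.998 ± 0.39, adjusted p = 0.122). Without replicate 1 of IL_TNF_24h, the library with 0.113 CPM, the difference at 24 h was -0.51 (adjusted p = 0.25). Without the filter on low counts both of these passed the test (adjusted p = 0.0142 at 6 h and 0.00485 at 24 h), as did that at 6 h with 3 libraries left out (adjusted p = 0.0076), while the alternatives gave up to 0.426 and 0.327. Alox5 overlaps the annotated span of Gm38880.

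Alox5ap moved less. It had 66.5 ± 3.08 CPM in IL_TNF_6h and 82.1 ± 8.09 CPM in IL_6h (-0.30 ± 0.15, adjusted p = 0.227). In IL_TNF_24h it had 31.1, 50.7 and 49.2 CPM, against 99.4, 97.9 and 104 CPM in IL_24h (-1.20 ± 0.15, adjusted p = 1.19e-05). TNF alone took it to 90.1 ± 4.05 CPM at 6 h (-1.06 ± 0.15, adjusted p = 1.09e-05) and 85.0 ± 8.00 CPM at 24 h (-1.15 ± 0.15, adjusted p = 3.51e-06), against 188 ± 26.4 CPM in Ctrl_0h. Hpgds, Alox5 and Alox5ap are also genes of mast cells, and the list of mast cell, basophil and eosinophil markers (9 of 10 matched) summed to 5.77 to 18.4 CPM in the treated groups and to 17.6 to 20.2 CPM in Ctrl_0h. Of that list only Kit and Ccr3 exceeded 1.12 CPM in any library, Fcer1a was at 0 in all 21, and Ms4a2 was at 0 in Ctrl_0h. The part of these cells in the falls was not tested.

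**Figure D2:**
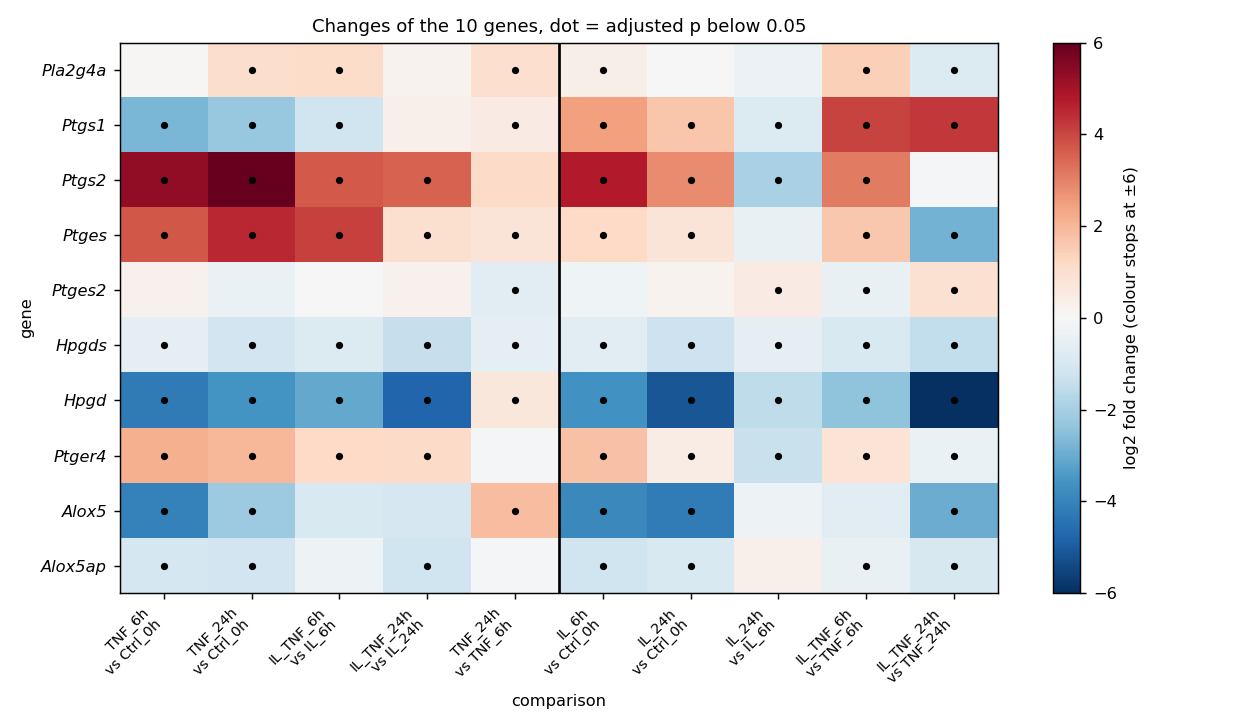
Log2 fold change of each of the 10 genes (rows, by role) in 10 comparisons of groups (columns). Red is higher and blue lower in the first-named group, the colour stops at ±6, and a dot marks an adjusted p below 0.05. The 5 columns left of the line stay inside a set of libraries and the 5 right of it cross sets. Ptgs2, Ptges and Ptger4 are red and Hpgd and Hpgds blue in all 4 columns that add TNF to untreated or IL-treated cells.

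In TNF_24h against TNF_6h, 5 of the 10 genes rose (12.7% of all genes did) and 2 fell (10.9%), or 7 called against 23.6%. Alox5 and Pla2g4a rose in every alternative, but the count was 2 without replicate 1 of TNF_6h, 4 without replicate 3 of TNF_6h and 3, 4 and 4 without replicates 1, 2 and 3 of TNF_24h. Ptgs2 was higher in TNF_24h with no overlap but was not called (1.13 ± 0.50, adjusted p = 0.113). It was called in 3 of 13 alternatives, over which its adjusted p lay between 3.07e-09 and 0.272. In IL_24h against IL_6h, where the sets differ, 1 rose (12.2% of all genes did) and 5 fell (11.8%), or 6 called against 24.0%. Among those that fell were Ptgs2 (-1.92 ± 0.54, adjusted p = 0.013), Hpgd (-1.51 ± 0.21, adjusted p = 1.81e-05) and Ptgs1 (-0.80 ± 0.12, adjusted p = 6.74e-05). This count was 3 without replicate 2 of IL_6h, without replicate 1 of IL_24h or without replicate 3 of IL_24h, and Ptgs2 lost its call in each of those fits (adjusted p = 0.0515, 0.0514 and 0.0531, the last being the highest of its alternatives).

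In IL_TNF_6h against TNF_6h, 5 rose (29.7% of all genes did) and 4 fell (27.5%), or 9 called against 57.1%. In IL_TNF_24h against TNF_24h, 2 rose (29.2%) and 7 fell (27.1%), or 9 called against 56.3%. At 6 h Ptgs2 was 3.10 ± 0.52 higher (adjusted p = 5.52e-05) and Ptges 1.596 ± 0.26 higher (adjusted p = 4.29e-05) in IL_TNF_6h than in TNF_6h. At 24 h Ptges was lower in IL_TNF_24h than in TNF_24h, with a log2 fold change of -2.81 ± 0.28 (adjusted p = 9.7e-08). Ptgs2 at 24 h gave -0.11 ± 0.49 (adjusted p = 0.862), and without replicate 1 of IL_TNF_24h -1.74 (adjusted p = 4.39e-06). Its alternatives ran up to an adjusted p of 0.961. Hpgd was lower at both times, by log2 fold changes of -2.44 ± 0.23 (adjusted p = 7.24e-08) and -6.31 ± 0.31 (adjusted p = 6.68e-12).

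The log2 ratio of synthesis to breakdown, taken in each library as CPM + 0.5 of Ptgs2 or Ptges over CPM + 0.5 of Hpgd, describes both sides together. It is not scaled per length, so only its differences between groups are read and not its sign. For Ptgs2 over Hpgd it was 5.70 ± 0.30 in IL_TNF_6h, 4.45 ± 1.55 in IL_TNF_24h, -0.57 ± 0.06 in IL_6h, -0.85 ± 0.05 in IL_24h, 0.57 ± 0.14 in TNF_6h and 1.00 ± 0.45 in TNF_24h, against -7.44 ± 0.24 in Ctrl_0h. IL_TNF_6h was thus 13.14 above Ctrl_0h, and every treated library was above every untreated one. For Ptges over Hpgd it was 4.65 ± 0.57 in IL_TNF_6h, 2.59 ± 0.39 in IL_TNF_24h, -1.88 ± 0.48 in IL_6h, -0.88 ± 0.32 in IL_24h, 1.01 ± 0.23 in TNF_6h and 1.12 ± 0.05 in TNF_24h, against -6.47 ± 0.75 in Ctrl_0h. By this measure the IL_TNF libraries were highest for both genes at both times. The pseudocount of 0.5 CPM lowers the ratio where Hpgd is near 0 and raises it where Ptgs2 or Ptges is.

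**Figure D3:**
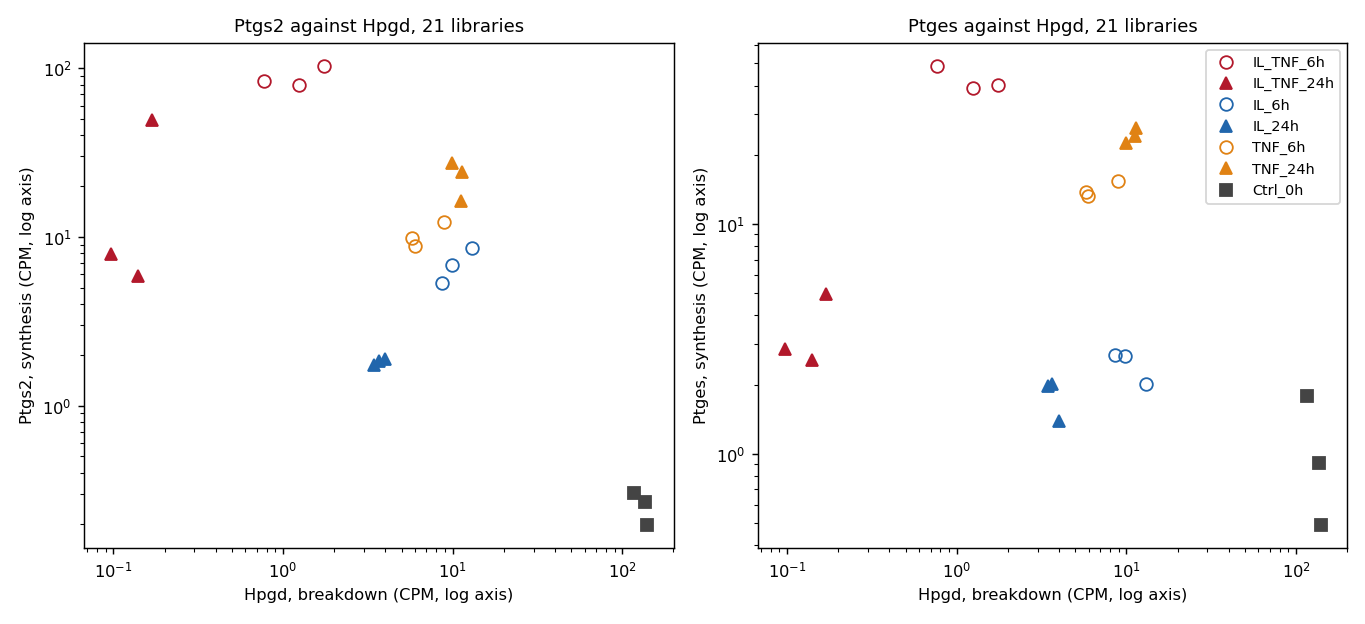
Level of Ptgs2 (left) and Ptges (right) against that of Hpgd in the 21 libraries, all in CPM on log axes. Each point is a library, coloured by treatment, with open circles for 6 h, triangles for 24 h and squares for untreated cells. IL_TNF_6h libraries lie at the upper left (Hpgd 0.768 to 1.75 CPM), untreated libraries at the lower right (Hpgd 116 to 140 CPM), and the IL_TNF_24h library with 49.4 CPM of Ptgs2 lies above the other two.

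On the CPM scale, the level with all 3 cytokines was set beside the sum of the separate changes, taken as IL plus TNF minus Ctrl_0h at the same time. At 6 h Ptgs2 had 89.0 ± 12.7 CPM in IL_TNF_6h, against a sum of 17.0 ± 1.4 CPM (SE), which is 5.24 times the sum. Ptges had 42.7 ± 5.36 CPM against a sum of 15.5 ± 0.8 CPM, 2.75 times, and Pla2g4a 58.8 ± 7.22 CPM against 28.2 ± 2.6 CPM, 2.08 times. All 3 libraries of IL_TNF_6h were above the sum for each of these genes. Ptgs1 was below it at 6 h, with 113 ± 3.64 CPM against 218 ± 6.0 CPM. At 24 h Ptges had 3.46 ± 1.30 CPM in IL_TNF_24h against a sum of 25.0 ± 1.1 CPM, 0.139 times, and Ptgs2 had 21.1 ± 24.6 CPM against 24.2 ± 3.3 CPM. Without replicate 1 of IL_TNF_24h, Ptgs2 averaged 6.87 CPM, below its sum. Ptgs1 was above its sum at 24 h (182 ± 34.7 CPM, against 111 ± 3.67 CPM, 1.64 times) and Pla2g4a below (25.2 ± 7.06 CPM, against 44.7 ± 3.1 CPM, 0.564 times), each the opposite of 6 h. The sums add libraries of different sets, and no test was made on this scale.

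**Figure D4:**
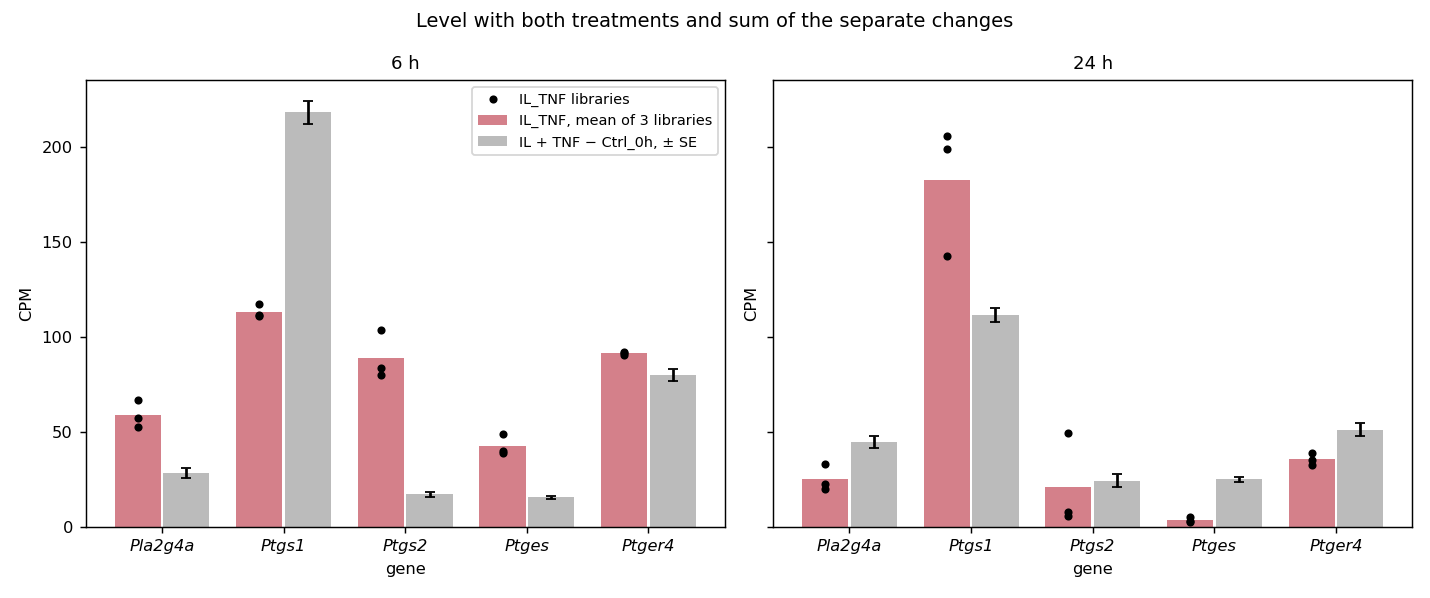
Level of 5 genes with all 3 cytokines (red bars, mean of 3 libraries, with the libraries as points) and the sum of the separate changes (grey bars, IL plus TNF minus Ctrl_0h, with its standard error), in CPM at 6 h (left) and 24 h (right). At 6 h the red bars of Pla2g4a, Ptgs2 and Ptges stand above the grey ones, and at 24 h that of Ptges stands below (3.46 against 25.0 CPM). Bars of different genes are not on a scale per length.

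On the log2 scale, the effect of TNF with IL (IL_TNF minus IL) was compared with its effect without IL (TNF minus Ctrl_0h) as an interaction in edgeR. Each of these effects lies inside a set, but the sets differ between them. In the interaction, the presence of IL and the set of libraries cannot be told apart. Only the second effect runs from 0 h. At 6 h, 5 of the 10 genes had a higher log2 fold change with IL (9.27% of all genes did) and 1 a lower one (9.13%), or 6 called against 18.4%. Of these 5, only Pla2g4a rose with IL. Ptgs1 and Hpgd fell less with IL than without, and Alox5 and Alox5ap fell by the test only without IL. At 24 h 1 had a higher (11.6%) and 4 a lower log2 fold change with IL (12.5%), or 5 called against 24.1%. The higher one was Ptgs1, which fell without IL and was not called with it. The rise of Ptgs2 at 6 h was 3.68 with IL and 5.32 without, and the difference of -1.63 ± 0.94 missed the threshold (adjusted p = 0.246). It passed in the fit of the 4 groups alone (adjusted p = 0.00812), without the filter on low counts (adjusted p = 1.1e-05) and with 3 libraries left out (adjusted p = 0.0128), and the other alternatives gave up to 0.366. The main fit estimates the spread of a gene over all 7 groups together. Among them is IL_TNF_24h, with 49.4, 5.86 and 7.88 CPM of Ptgs2, which is not in this contrast. What that group adds to the standard error was not tested. Ptgs2 thus exceeded the sum on the CPM scale while its fold over the IL group was no larger than its fold over Ctrl_0h, in which it had 6 to 10 counts per library. Ptges at 6 h gave 4.12 with IL and 3.74 without (difference 0.38 ± 0.41, adjusted p = 0.572), and at 24 h 0.94 with IL and 4.52 without, a difference of -3.58 ± 0.42 (adjusted p = 4.76e-06). For Hpgd the difference was 1.20 ± 0.30 at 6 h (adjusted p = 0.00897) and -1.16 ± 0.42 at 24 h (adjusted p = 0.0521).

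A wider list of 66 genes, of which 50 were tested, was read for the comparisons inside a set. Of 18 tested genes of arachidonic acid release and re-esterification, 3 rose and 4 fell in IL_TNF_6h against IL_6h (7.09% and 6.98% of all genes did), and 4 rose and none fell in IL_TNF_24h against IL_24h (6.03% and 5.08%). With TNF alone, 8 rose and 2 fell in TNF_6h against Ctrl_0h (18.8% and 20.5% of all genes did), and 8 rose and 7 fell in TNF_24h against Ctrl_0h (20.9% and 24.4%). The median log2 fold changes of the 18 in these 4 comparisons were 0.06, -0.14, 0.19 and 0.34. Acsl1, which activates long-chain fatty acids, rose in all 4, by 2.49 ± 0.25 in IL_TNF_6h (391 CPM, against 69.5 CPM in IL_6h) and by 4.10 ± 0.27 in TNF_6h (340 CPM, against 19.8 CPM in Ctrl_0h). Lpcat2, a lysophospholipid acyltransferase that makes platelet-activating factor, also rose in all 4, by 0.55 ± 0.10 and 1.44 ± 0.10 with IL and by 1.94 ± 0.10 and 1.76 ± 0.10 without. The phospholipase Plaat3 did the same, by 1.74 ± 0.30, 1.67 ± 0.30, 2.59 ± 0.31 and 2.87 ± 0.31 in that order. Pla2g7, which breaks down platelet-activating factor, rose by 2.87 ± 0.17 in IL_TNF_24h against IL_24h (96.1 and 13.1 CPM) and by 3.03 ± 0.17 in TNF_6h (198 CPM, against 24.2 CPM in Ctrl_0h). Its rise in TNF_24h against Ctrl_0h was 0.64 ± 0.16 (37.7 CPM in TNF_24h), and it was not called in IL_TNF_6h against IL_6h (0.15 ± 0.16, adjusted p = 0.704). Daglb, diacylglycerol lipase beta, fell in IL_TNF_6h (-1.41 ± 0.18, 65.7 CPM, against 175 CPM in IL_6h).

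Among 5 tested prostanoid synthases other than the members, none rose in the 4 comparisons. The falls were few and are set beside the share of all genes that fell, which was 6.98% in IL_TNF_6h, 5.08% in IL_TNF_24h, 20.5% in TNF_6h and 24.4% in TNF_24h. In IL_TNF_6h against IL_6h 1 fell, Cbr1, a carbonyl reductase of prostaglandin E2 (-0.44 ± 0.14), in IL_TNF_24h against IL_24h none fell, in TNF_6h against Ctrl_0h 1 fell, Akr1b3 (-0.56 ± 0.14), and in TNF_24h against Ctrl_0h 2 fell, Cbr1 (-0.72 ± 0.14) and Tbxas1, thromboxane synthase (-0.41 ± 0.13). Of 5 tested genes of prostanoid breakdown and transport besides Hpgd, none rose, and 2 fell in IL_TNF_6h (6.98% of all genes did), 0 in IL_TNF_24h (5.08%), 2 in TNF_6h (20.5%) and 4 in TNF_24h (24.4%). Ptgr1, prostaglandin reductase 1, fell by 1.45 on the log2 scale in TNF_6h (23.5 CPM, against 64.0 CPM in Ctrl_0h), which is less than the change of Hpgd. Of 4 tested prostanoid receptors, 1 rose and 1 fell in IL_TNF_6h (all genes 7.09% and 6.98%), none rose and 1 fell in IL_TNF_24h (6.03% and 5.08%), 2 rose and 1 fell in TNF_6h (18.8% and 20.5%), and 1 rose and 1 fell in TNF_24h (20.9% and 24.4%). Ptger2, the EP2 receptor of prostaglandin E2, fell by 1.13 in IL_TNF_6h (9.55 CPM, against 20.9 CPM in IL_6h) and by 0.83 in IL_TNF_24h (19.3 CPM, against 34.2 CPM in IL_24h). With TNF alone it rose by 0.97 ± 0.18 in TNF_6h (4.82 CPM, against 2.47 CPM in Ctrl_0h) and fell by 2.80 in TNF_24h (0.355 CPM). Ptgir, the prostacyclin receptor, rose by 2.33 ± 0.21 in TNF_6h and by 2.25 ± 0.21 in TNF_24h against Ctrl_0h.

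Of 13 tested leukotriene and lipoxygenase enzymes, 1 rose and 8 fell with TNF alone, both at 6 h (18.8% and 20.5% of all genes did) and at 24 h (20.9% and 24.4%). Their median log2 fold changes were -1.38 and -1.88, but both medians fall on genes at low levels. The gene at the median at 6 h was not called (0.243 CPM in TNF_6h, against 0.642 CPM in Ctrl_0h). That at 24 h had 0.588 CPM in TNF_24h, against 2.17 CPM in Ctrl_0h. Mgst3, a microsomal glutathione transferase, had 19.3 CPM in TNF_6h and 33.1 CPM in TNF_24h, against 91.6 CPM in Ctrl_0h (-2.25 ± 0.15 and -1.47 ± 0.15), and Lta4h, leukotriene A4 hydrolase, fell by 0.44 and 0.49 on the log2 scale. The gene that rose was Dpep2, a dipeptidase of leukotriene D4, at 754 CPM in TNF_6h and 681 CPM in TNF_24h, against 406 CPM in Ctrl_0h. With IL-4 and IL-13, 1 rose and 2 fell at 6 h (all genes 7.09% and 6.98%) and 2 rose and 1 fell at 24 h (6.03% and 5.08%). Of 5 tested receptors of leukotrienes, lipoxins and other mediators, 1 rose and 1 fell in IL_TNF_6h (all genes 7.09% and 6.98%) and 2 rose and none fell in IL_TNF_24h (6.03% and 5.08%). With TNF alone, 4 rose and 1 fell in TNF_6h (18.8% and 20.5%), and 3 rose and 1 fell in TNF_24h (20.9% and 24.4%). Cmklr1, a receptor of chemerin, rose in all 4 comparisons, by 0.85 ± 0.20 and 1.79 ± 0.22 with IL and by 2.76 ± 0.23 and 2.99 ± 0.23 without. It was the only receptor of this list that rose in IL_TNF_6h. Of the genes named from this list, Acsl1, Lpcat2, Pla2g7, Tbxas1, Dpep2 and Cmklr1 overlap other annotated genes, with which their reads could be shared.

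**Figure D5:**
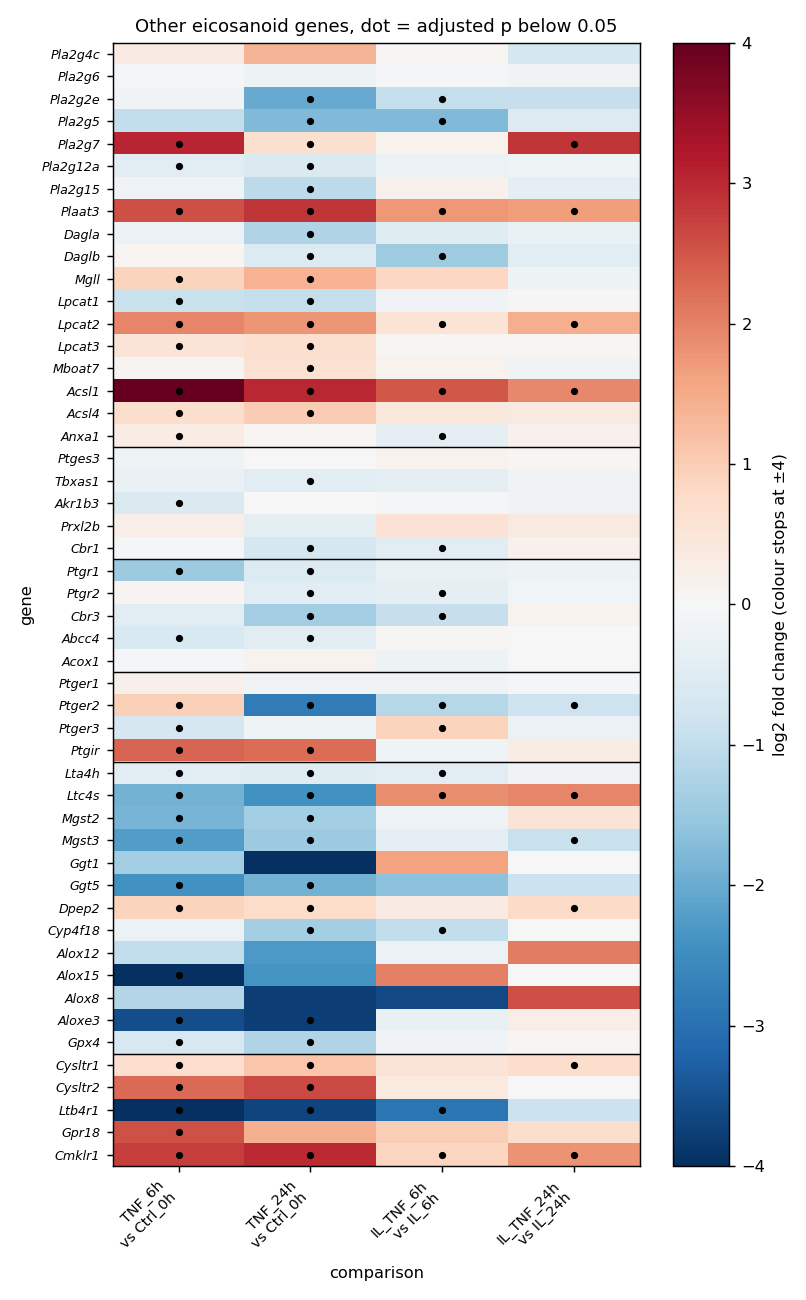
Log2 fold change of the tested genes of the wider pathway list in the 4 comparisons that add TNF to untreated or IL-treated cells. Lines separate the gene groups, red is higher and blue lower in the first-named group, the colour stops at ±4, and a dot marks an adjusted p below 0.05. Acsl1, Plaat3, Lpcat2 and Cmklr1 are red with a dot in every column.

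Over the 7 group means of log2(CPM + 0.5), 8964 genes were ranked by Pearson correlation with Ptgs2, Ptges and Hpgd. The closest to Ptgs2 were Slc31a1 (r = 0.991), Ppp4r2 (r = 0.989) and Mcoln2 (r = 0.986), which had 152, 174 and 189 CPM in IL_TNF_6h, against 39.5, 38.4 and 35.7 CPM in Ctrl_0h. The closest to Ptges were Fyb (r = 0.983), Marcks (r = 0.978) and Slc30a6 (r = 0.970), and to Hpgd Rtl8b (r = 0.984), Tceal9 (r = 0.983) and Grhpr (r = 0.975). These values describe 7 points only, and some of the groups share a set of libraries.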

How the data were processed

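The authors deposited whole-number read counts by gene, without normalization. The tools named, per the submitters' processing notes, are TopHat2 2.0.12, Subread 1.6.3 with featureCounts, and edgeR 3.28.1, with GRCm38 as the genome build. Annotation, strand setting and counting of mates: not given in the sources used here. The table holds 30373 values of 2 and 17808 values of 1, so many fragments may be counted once per mate. Depth was 28063252 to 48654300 counts per library.

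Identifiers were matched to symbols with gene tables (32832 of 47069 had one). With R 4.3.3 and edgeR 4.0.16, genes were filtered with filterByExpr by group (15581 of 32292 with a count), scaled with TMM, a trimmed mean of log ratios, and fitted with 1 term per group over all 21 libraries. The quasi-likelihood F test was applied to each contrast. A standard error is the absolute log2 fold change divided by the root of F. CPM per kb uses the union of exons in GENCODE vM1. The method was tested on simulated data of IL_TNF_6h against IL_6h over 15285 genes, where 62 of 100 genes changed by 2-fold and 84 of 100 changed by 4-fold were called, and 3 of 149 calls were false. The changed genes were drawn only from those above a minimum mean count in IL_6h. Counts were simulated with the fitted spread, and no library was made to stand apart. Recovery at the lowest counts or with such a library was therefore not measured.

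The 10 genes, the wider lists, the naming rule and the alternatives were chosen with earlier results of these data known. The rule names pathway genes called inside a set of libraries, whose higher group averages 10 CPM or more and whose libraries do not overlap, up to 5 per list and comparison, and the 3 genes closest in pattern to Ptgs2, Ptges and Hpgd. Alternatives were DESeq2 size factors, the Wald test of DESeq2 1.42.0, no filter, a filter of 1 CPM in 3 libraries, only the groups compared, a replicate block, each library left out, and 3 libraries left out together (replicate 3 of TNF_6h, replicate 1 of IL_TNF_24h and replicate 2 of Ctrl_0h).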

Additional observations from a re-analysis of the deposited data

Results flagged for a closer look

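The effect of TNF with IL (IL_TNF minus IL) differed from its effect without IL (TNF minus Ctrl_0h) for 6 of the 10 genes at 6 h (18.4% of all genes) and for 5 at 24 h (24.1%), by the interaction in edgeR. At 6 h the difference was 3.17 ± 0.53 for Alox5 (adjusted p = 0.000288; -0.90 with IL and -4.06 without, as log2 fold changes). It was 1.57 ± 0.18 for Ptgs1 (adjusted p = 6.58e-06; -1.19 with IL and -2.76 without) and 1.20 ± 0.30 for Hpgd (adjusted p = 0.00897; -3.05 and -4.25), and Hpgd lost its call without replicate 3 of IL_TNF_6h (0.81, adjusted p = 0.0723, the highest of its alternatives). It was 1.04 ± 0.23 for Pla2g4a (adjusted p = 0.00293), 0.76 ± 0.21 for Alox5ap (adjusted p = 0.0151) and -0.94 ± 0.17 for Ptger4 (adjusted p = 0.000585). Alox5ap lost its call without replicate 2 of IL_6h (0.64, adjusted p = 0.0546, the highest of its alternatives) or replicate 3 of IL_TNF_6h (0.65, adjusted p = 0.0514).

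At 24 h the difference was 2.58 ± 0.18 for Ptgs1 (adjusted p = 1.93e-08; 0.30 with IL and -2.27 without). It was -3.58 ± 0.42 for Ptges (adjusted p = 4.76e-06; 0.94 with IL and 4.52 without), -0.84 ± 0.23 for Pla2g4a (adjusted p = 0.0107; 0.23 and 1.08) and -0.84 ± 0.17 for Ptger4 (adjusted p = 0.00131; 1.17 and 2.00). For Ptgs2 it was -2.93 ± 0.94 (adjusted p = 0.0296; 3.52 and 6.45), and its adjusted p rose to at most 0.0668 in 9 of 19 alternatives, among them each fit without 1 library of Ctrl_0h. Without replicate 1 of IL_TNF_24h it was -4.60 (adjusted p = 7.15e-08). The untreated cells were sampled at 0 h, so the effect without IL includes time in culture and the effect with IL does not. The effects with and without IL also come from different sets of libraries, so IL and set cannot be told apart in these differences.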

How the results depend on the processing

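Of 1680 values of the 10 genes in 12 contrasts under the alternatives, 1546 kept their direction and their side of the threshold, 83 lost the call, 32 gained it and 0 called values changed sign. In the other 19 a difference that was not called turned its sign, the largest of these being 0.38 as reported (Ptges, interaction at 6 h). The number of the 10 genes called was 2 to 5 on leaving out 1 library in TNF_24h against TNF_6h and 3 to 6 in IL_24h against IL_6h. In all other contrasts it stayed within 1.5 times of the value reported. The difference from Ctrl_0h of the log2 ratio of synthesis to breakdown moved with the pseudocount. For Ptgs2 over Hpgd, pseudocounts of 0.1 and 2 CPM gave 14.63 and 10.68 for IL_TNF_6h (13.14 as reported), 14.37 and 8.77 for IL_TNF_24h (11.89), 7.93 and 5.39 for IL_6h (6.87), 7.55 and 5.30 for IL_24h (6.59), 9.13 and 6.36 for TNF_6h (8.01), and 9.56 and 6.79 for TNF_24h (8.44). For Ptges over Hpgd, 2 CPM gave 9.24 for IL_TNF_6h (11.13), 6.79 for IL_TNF_24h (9.07, and 10.84 with 0.1 CPM), 6.33 for TNF_6h (7.49) and 6.49 for TNF_24h (7.60). A higher pseudocount pulls a ratio of low values towards 0 by construction. Over 63 pairs of same-numbered libraries, inside and across sets, the correlation of deviations had a median of 0.02. It ran from -0.49 to 0.62, and 13 pairs were over 0.1. Pairs inside a set were not read apart, so this median cannot tell whether libraries there are paired by number. With the replicate block, 8 of the 10 genes were called in IL_6h against Ctrl_0h in place of 9, as Pla2g4a (0.37) had an adjusted p of 0.06, and no other count of the 10 genes changed. Ptgs2 in Ctrl_0h (6 to 10 counts per library) and Hpgd in IL_TNF_24h (4 to 6) were limited by depth. Intervals of counting error were not used.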
